A study of Mus musculus with 4 samples.

Results

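The stretch between *Rpl34* and the promoter of *Lef1* on mouse chromosome 3 was described by its contacts with the *Lef1* promoter and with Leaf, an enhancer of *Lef1* that lies within it. It consisted of 2 parts, chr3:130730399-130838454 and chr3:130937338-131104978 (mm10), since the long non-coding RNA *2010110G14Rik* between them was left out. The members were the restriction fragments whose midpoint fell in either part and whose raw score was not left empty. There were 281 such fragments among 2350945 in the genome, with 108 in the part next to *Rpl34*, called the far part here, and 173 in the part next to *Lef1*, called the near part. From the Leaf viewpoint, 271 of them had a score, as 10 next to that viewpoint were empty.

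Chromatin contacts were measured by 4C-Seq in freshly isolated primary cells of OF1 mice. The 4 libraries came from whisker pads of E12.5 embryos and from adult kidney, which served as the control, each with the *Lef1* promoter and with Leaf as viewpoints. For each whisker pad condition, 120 pads were pooled, and the methods also name E13 for their collection. Each tissue and viewpoint had a single library, so that the values below have no replicate check and no test was made. Whether both libraries of a tissue came from 1 pool of cells is not given in the sources used here. Cell type markers could not be examined, as contact data hold no expression values. The deposited scores are not whole reads, so the depth is unknown and a score of 0 sets no limit on contact.

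In 4C-Seq, crosslinked chromatin is cut and ligated, and the fragments joined to one chosen site, the viewpoint, are sequenced. A high score marks a fragment that often lay near the viewpoint, and scores fall with distance along the chromosome. *Lef1* encodes a transcription factor that binds DNA with β-catenin in Wnt signalling and is needed for hair follicles and whiskers. Gene deserts beside developmental genes often hold enhancers, which meet their promoter through looping of the chromatin.

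The label of an intergenic stretch held for protein-coding genes only. In the GENCODE M21 annotation, 0 protein-coding genes and 4 other gene models overlapped the stretch, and 50 of the 281 fragments had their midpoint inside one. These were the long non-coding RNAs *Gm42997* and *Gm43522* and the processed pseudogene *Gm43524* in the far part, and *A430072C10Rik*, an unconfirmed transcript model at 131023839 to 131026370, in the near part. RefSeq held 3 non-coding models in the stretch, *Gm43522*, *Gm36443* and *Gm36603*, with 10 fragments inside. In all, the stretch measured 275.697 kb (108.056 and 167.641 kb) and was summarised in 29 bins of 10 kb, 11 far and 18 near. A bin held 3 to 16 of the fragments. The bins that hold Leaf, chr3:131010001-131020000 and chr3:131020001-131030000, are called the Leaf bins.

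To normalize them, the raw scores of a library were set relative to the average of its chromosome 3 fragments within 1 Mb of the viewpoint, and a normalized score of 1 is therefore the average of these 2 Mb. For the distance-weighted score, this normalized score was multiplied by the distance from the viewpoint in units of 100 kb, so that it would be level along the stretch if contacts fell in inverse proportion to distance. The sequences below are those of the highest fragment in each of the 3 bins with the highest distance-weighted scores from the *Lef1* promoter in whisker pad, followed by the highest fragment beside Leaf and the only scored fragment that overlaps Leaf. They are from the plus strand of GRCm38, and in the first 4 the capitals mark the sites of the cutters, CATG for NlaIII and GATC for DpnII. In the last, the capitals mark the bases that belong to Leaf.
chr3:130818235-130818519, bin from 130810001: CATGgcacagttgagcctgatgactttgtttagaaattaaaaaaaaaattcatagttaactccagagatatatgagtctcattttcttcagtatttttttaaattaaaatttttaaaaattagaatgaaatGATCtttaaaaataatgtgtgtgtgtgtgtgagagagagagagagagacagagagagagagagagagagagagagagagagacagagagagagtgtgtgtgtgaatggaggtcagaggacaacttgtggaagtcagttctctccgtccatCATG
chr3:130732273-130732436, bin from 130730001: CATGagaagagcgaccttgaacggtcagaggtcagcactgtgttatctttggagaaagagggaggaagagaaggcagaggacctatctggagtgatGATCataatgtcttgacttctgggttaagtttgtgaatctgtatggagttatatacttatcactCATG
chr3:130803166-130803395, bin from 130800001: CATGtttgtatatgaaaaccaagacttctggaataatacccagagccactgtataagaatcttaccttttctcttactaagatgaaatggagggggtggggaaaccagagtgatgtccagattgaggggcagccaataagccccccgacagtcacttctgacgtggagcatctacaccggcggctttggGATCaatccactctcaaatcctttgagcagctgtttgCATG
chr3:131018769-131019068, the first 300 bases of the highest fragment within 2 kb of Leaf: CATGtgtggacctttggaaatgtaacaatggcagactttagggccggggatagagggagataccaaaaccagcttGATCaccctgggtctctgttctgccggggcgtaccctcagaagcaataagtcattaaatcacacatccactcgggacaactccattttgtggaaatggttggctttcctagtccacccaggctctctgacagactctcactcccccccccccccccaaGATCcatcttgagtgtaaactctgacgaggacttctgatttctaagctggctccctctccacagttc
chr3:131019470-131019769, the end of the fragment that reaches 20 bases into Leaf: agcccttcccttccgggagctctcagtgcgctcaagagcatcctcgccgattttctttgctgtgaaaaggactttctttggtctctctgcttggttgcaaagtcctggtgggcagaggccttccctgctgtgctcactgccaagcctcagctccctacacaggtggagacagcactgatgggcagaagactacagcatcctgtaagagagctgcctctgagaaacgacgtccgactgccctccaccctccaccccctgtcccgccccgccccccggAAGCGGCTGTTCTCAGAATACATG
The first of these fragments had a GC content of 35.8% and the end of the fragment that reaches Leaf had 58.7%. Neither CTTTGAT nor CTTTGAA, forms of the sequence that LEF1 and its relatives recognise, occurred on either strand in any of the 5, and Leaf itself held 0 matches. Over the whole 10 kb bins, 29 of 29 held at least 1 match, as did 98.9% of all 190 bins of the same length within 1 Mb of the promoter viewpoint with at least 90% known bases. The core motif of CTCF, a protein that often lies at the bases of loops, was searched as a single exact pattern on either strand. It was found in 0 of the 29 bins and in 7 of the 161 others, which is 3.68% of all 190. With matches so rare, their absence from the 29 bins does not show that these lack CTCF sites. The 29 bins had a median GC content of 43.8% against 42.2% in the others, and a median share of repeats of 26.6% against 23.3%.

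From the *Lef1* promoter, the stretch had nearly the same mean normalized score in both tissues but was covered by fewer fragments in kidney. In whisker pad, 273 of the 281 fragments had a score above 0, which is 97.2% (95% Wilson interval 94.5% to 98.6%, a spread over fragments that says nothing of animals). In kidney, 177 were above 0, or 63.0% (57.2% to 68.4%). Above 0 in kidney alone were 0 fragments, while 96 were above 0 in whisker pad alone and 8 were at 0 in both. Normalized scores averaged 2.26 in whisker pad and 2.24 in kidney, a log2 ratio of 0.01. This near equality depended on the scaling. The log2 ratio was 0.75 when scores were scaled to the mean of all of chromosome 3. It was 1.09 when the median of the fragments above 0 within 1 Mb was used. Raw scores summed over the genome to 854206 in whisker pad and 821297 in kidney. Their mean within 1 Mb was 101.36 in whisker pad but 21.33 in kidney. Less of the kidney score thus lay near the promoter, and the 1 Mb scale removes this difference. Its cause was not tested, as the scaling of the deposited scores is not given. The medians of the normalized scores were 1.69 and 0.754. At the 177 fragments above 0 in both tissues, which were all those above 0 in kidney, 87 were higher in whisker pad and 90 in kidney. On the 1 Mb scale, the mean over fragments above 0 was higher in kidney, with 3.55 against 2.32 in whisker pad. This follows from the near equal means over all fragments and the lower coverage in kidney. The direction of this difference and the split of the 177 fragments depend on the scaling too, as the other scalings add 0.74 and 1.08 to each log2 ratio. The 10 highest fragments held 18.4% of the score of the stretch in whisker pad and 30.5% in kidney.

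From Leaf, the mean score was again near equal and the coverage lower. In whisker pad, 223 of 271 fragments were above 0, or 82.3% (95% Wilson interval 77.3% to 86.4%), and in kidney 123, or 45.4% (39.6% to 51.3%). The mean normalized scores were 4.07 and 4.51, a log2 ratio of -0.15, and the medians 2.25 and 0. With the other 2 scalings, the log2 ratio was 0.57 and 1.34. Raw scores from Leaf summed over the genome to 837132 in whisker pad and 787783 in kidney. Their mean within 1 Mb was again lower in kidney, a difference that the 1 Mb scale removes. A score above 0 was found in whisker pad alone at 109 fragments, in kidney alone at 9 and in neither at 39. In all, 147 of the 271 fragments were higher in whisker pad, against 609 (30.6%) of the 1992 within 1 Mb, those at 0 in both tissues included. A fragment at 0 in whisker pad cannot be higher there, and only 739 of the 1992 were above 0 in whisker pad, against 223 of the 271. The 2 shares therefore also reflect coverage. At the 114 above 0 in both, 38 were higher in whisker pad and 76 in kidney on the 1 Mb scale, a split that also depends on the scaling. The 10 highest fragments held 30.5% of the score in whisker pad and 38.8% in kidney.

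The lower coverage in kidney was not particular to the stretch. Of the 2007 fragments within 1 Mb of the promoter, 1195 had a score above 0 in whisker pad and 585 in kidney. Of the 1992 around Leaf, these were 739 and 278. The stretch made up 281 of the 2007 fragments around the promoter and held 31.6% of their score in whisker pad and 31.3% in kidney. From Leaf, it made up 271 of the 1992 and held 55.3% and 61.4%. Long fragments were above 0 more often than short ones in each of the 4 libraries. From the promoter in kidney, 72 of the 141 fragments of at most the median length of 314 bases were above 0, and 105 of the 140 longer ones. From Leaf in kidney, they were 40 of 137 and 83 of 134. In whisker pad the shares were 95.7% of the short and 98.6% of the long fragments from the promoter, and 72.3% and 92.5% from Leaf. The part of fragment length and of depth in the difference between the tissues was not tested.

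**Figure D1:**
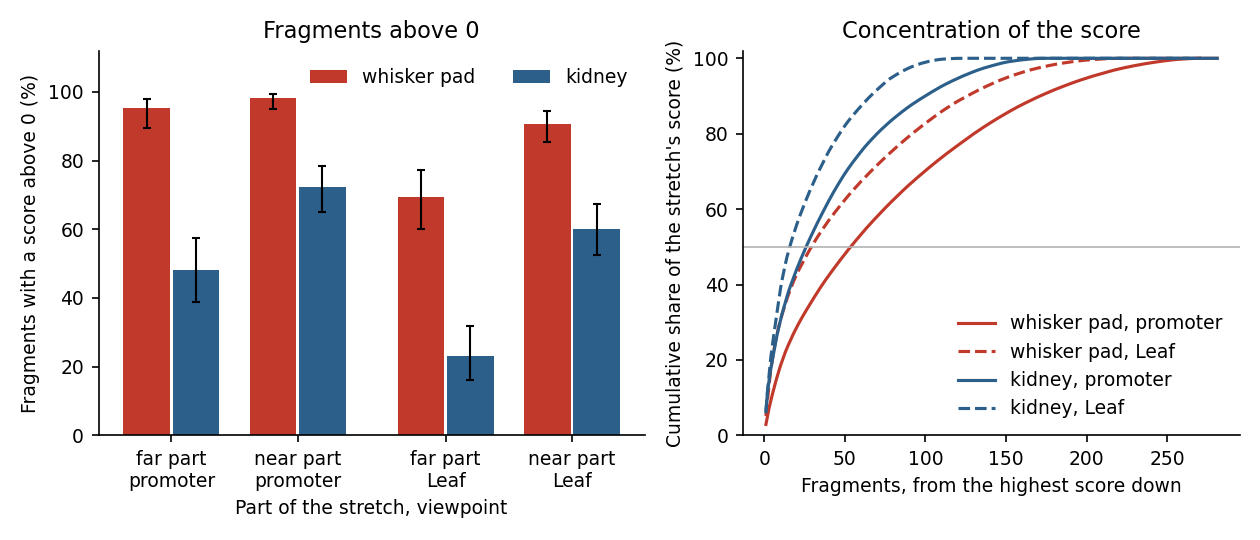
Left, the share of fragments with a score above 0 in the far and near part of the stretch, with bars for whisker pad and kidney and error bars for the 95% Wilson interval over fragments. Right, the share of the score of the stretch (vertical axis, %) that is held by the fragments ranked from the highest down (horizontal axis), with 54 and 26 fragments holding the first 50% from the promoter in whisker pad and kidney, and 30 and 16 from Leaf.

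In the far part, a larger share of fragments was above 0 in whisker pad than in kidney. From the promoter, whisker pad had 95.4% of its 108 fragments above 0 and kidney 48.1%, with mean normalized scores of 1.57 and 1.18, a log2 ratio of 0.41. In the near part, these shares were 98.3% and 72.3% of 173 fragments. From Leaf, 69.4% and 23.1% of the far fragments and 90.8% and 60.1% of 163 near fragments were above 0, with far means of 1.28 and 0.966, a log2 ratio of 0.40. The near means were 2.69 in whisker pad and 2.89 in kidney from the promoter, a log2 ratio of -0.11, and 5.91 and 6.86 from Leaf, a log2 ratio of -0.22. This direction turned with the scaling, to 0.63 from the promoter and 0.50 from Leaf by the mean of chromosome 3, and to 0.97 and 1.27 by the median of fragments above 0. Fragments within 20 kb of the viewpoint were then left out, also in the scale. The log2 ratio from the promoter was 0.07 in the far and -0.15 in the near part, and from Leaf 0.27 and -0.19. From either viewpoint the far value stayed above the near value, though the 2 lay closer together than with all fragments. Which of them was larger in size depends on the scaling.

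The bins showed the same picture in more detail. From the promoter, 19 of 29 bins were higher in whisker pad, against 59.9% of the 192 bins within 1 Mb that held at least 3 scored fragments. At least 2-fold higher in whisker pad were 7 of the 29, or 24.1%, against 38.0% of all bins. At least 2-fold lower was 1, or 3.45%, against 17.7%. From Leaf, 16 of 29 were higher in whisker pad against 58.9% of all bins, 10 were at least 2-fold higher (34.5% against 50.0%) and 1 at least 2-fold lower (3.45% against 14.6%). The bins within 1 Mb include some at 0 in 1 library, which count as 2-fold, whereas each of the 29 was above 0 in every library. Among the 148 bins above 0 in both libraries from the promoter, 24.3% were at least 2-fold higher and 19.6% at least 2-fold lower, and among the 101 from Leaf these were 32.7% and 21.8%. Against these, the shares of the stretch at least 2-fold higher lay near the background, and those at least 2-fold lower, each 1 bin, below it. A change of scale moves every bin of a viewpoint by the same amount and leaves their order as it is. The mean of all of chromosome 3 added 0.74 to each log2 ratio from the promoter and 0.72 from Leaf, and the median of fragments above 0 added 1.08 and 1.49. The number of bins higher in whisker pad then became 25 and 28 of 29 from either viewpoint. With the first of these scalings, the 4 bins that were still higher in kidney from the promoter were those from 131030001, 131040001, 131090001 and 131100001, all between Leaf and the promoter, and from Leaf they were those from 130740001, 130800001, 131040001 and 131080001. With the second, it was 1 bin from each viewpoint, that from 131100001 and that from 130740001.

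Contacts of the promoter were highest in the bins next to the viewpoint, and higher there in kidney. The bin from 131100001, which borders the promoter viewpoint and holds 3 fragments, had a mean normalized score of 9.03 in whisker pad against 19.2 in kidney. The bin from 131090001, with 6 fragments, had 8.85 and 17.3. These were the 2 bins with the lowest ratio of whisker pad to kidney, 0.47 and 0.51. The third lowest was the bin from 131040001 between Leaf and the promoter, with 1.15 and 2.15, a ratio of 0.54. In kidney, 68.5% of the score of the bin from 131100001 came from 1 fragment.

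**Figure D2:**
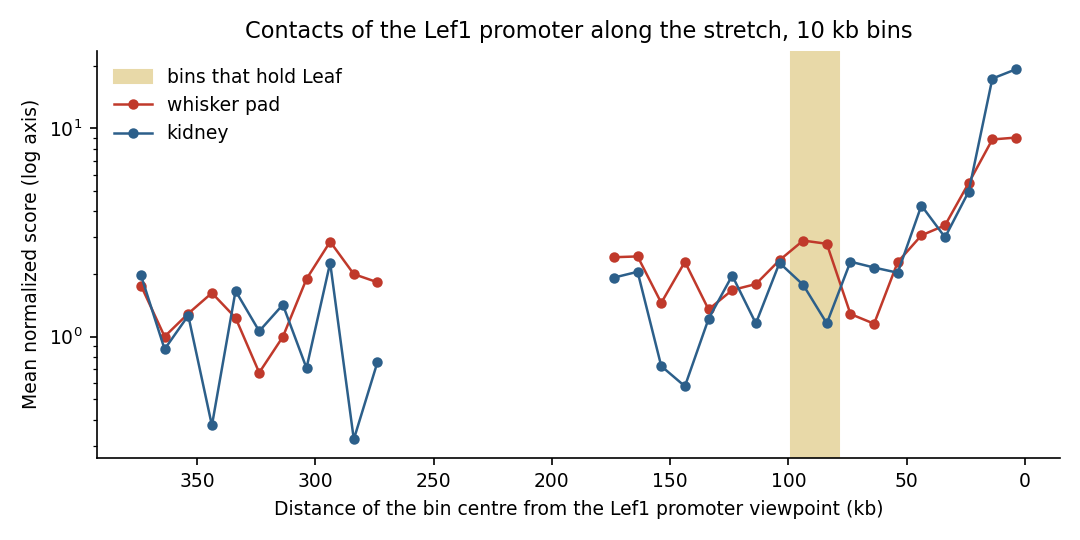
Mean normalized score of each 10 kb bin (vertical log axis; 1 is the mean of the fragments within 1 Mb) against the distance of the bin centre from the *Lef1* promoter viewpoint in kb, with 1 point per bin and library and the excluded *2010110G14Rik* as the gap. In the Leaf bins, shaded, whisker pad had 2.89 and 2.79 and kidney 1.77 and 1.16, and both tissues were highest beside the promoter.

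Promoter contacts of the Leaf bins were above those of most other bins in whisker pad, though not the highest of the stretch. In whisker pad, 22 of 22 fragments were above 0, with a mean normalized score of 2.86 and quartiles of 1.79 and 3.49. In kidney, 19 of 22 were above 0, with a mean of 1.58 and quartiles of 0.941 and 2.16. The mean exceeded that of 22 of the 27 other bins in whisker pad and of 12 of 27 in kidney. As the Leaf bins lie closer to the promoter than most of the stretch, they were also ranked by the distance-weighted score. It was 2.58 in whisker pad, above 14 of 27 other bins, and 1.44 in kidney, above 10 of 27. Among the 16 other bins of the near part alone, it was above 13 in whisker pad and above 8 in kidney. Without the weight, the Leaf bins were above 11 of these 16 in whisker pad and above 4 in kidney. Scores in the near part fell less steeply than the weighting assumes, so that the weight itself lowers the bins between Leaf and the promoter.

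The ratio of whisker pad to kidney in the Leaf bins was 1.81, a log2 ratio of 0.86, and exceeded that of 21 of the 27 other bins, which ranged from 0.47 to 6.21 with a median of 1.11. The bin from 131010001 held 15 fragments, with 2.89 ± 2.11 in whisker pad and 1.77 ± 1.61 in kidney (SD over fragments). The bin from 131020001 held 7, with 2.79 ± 1.78 and 1.16 ± 0.92. The ratios were 1.63 and 2.41, so that only the latter was past 2-fold on this scale. Scaled to the mean of chromosome 3 they were 2.72 and 4.02, and to the median of fragments above 0 they were 3.45 and 5.10, so that both were past 2-fold. By the share of fragments above 0 in place of the mean score, the ratio of the Leaf bins exceeded that of 5 of the 27 other bins, as nearly all of their fragments were above 0 in both tissues.

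The 7 fragments within 2 kb of Leaf all had a higher normalized score in whisker pad, as did 183 of the 281 fragments of the stretch (65.1%) and 46.2% of all 2007 within 1 Mb of the promoter, those at 0 in both tissues included. The highest, at 131018773 to 131019076, had 9.002 in whisker pad and 3.396 in kidney. The adjoining fragment from 131019081, which shares 20 bases with Leaf, had 2.23 and 2.01. On the other side of Leaf, the fragments from 131020832 and 131021388 had 1.99 and 1.33 in whisker pad and 1.25 and 1.15 in kidney. Within 2 kb of the element, the difference between the libraries was therefore largest at 1 fragment on its centromeric side and smaller at those next to it. Further out on the side of *Lef1*, the fragment from 131022649 had 3.32 and 1.23 and that from 131024450 had 5.17 and 1.30, while that from 131023481 was higher in kidney. Of the 2 Leaf bins, the one on that side had the larger ratio, 2.41 against 1.63.

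Relative to their neighbours, the Leaf bins formed a local maximum of promoter contacts in whisker pad. The mean of a pair of adjacent bins was divided by the mean of the 2 bins on either side, a measure chosen after the values were seen. For the Leaf bins it was 1.73 in whisker pad, which ranked first of the 19 pairs of the stretch, level with 1.73 at 130800001 to 130820000. In kidney it was 0.746, rank 14 of 19, and the pair from 130800001 was first with 1.67. In whisker pad, the bins next to them on the promoter side were low, with 1.29 and 1.15 in the bins from 131030001 and 131040001, where kidney had 2.29 and 2.15. The difference between the tissues depended on the summary. With medians of fragments in place of means, the local ratio was 1.77 in whisker pad and 1.95 in kidney. By the share of fragments above 0 it was 1.06 and 1.29. Without the highest fragment of each bin it was 1.83 and 0.98. In kidney, 69.7% of the score of the neighbouring bin from 131000001 came from 1 fragment.

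**Figure D3:**
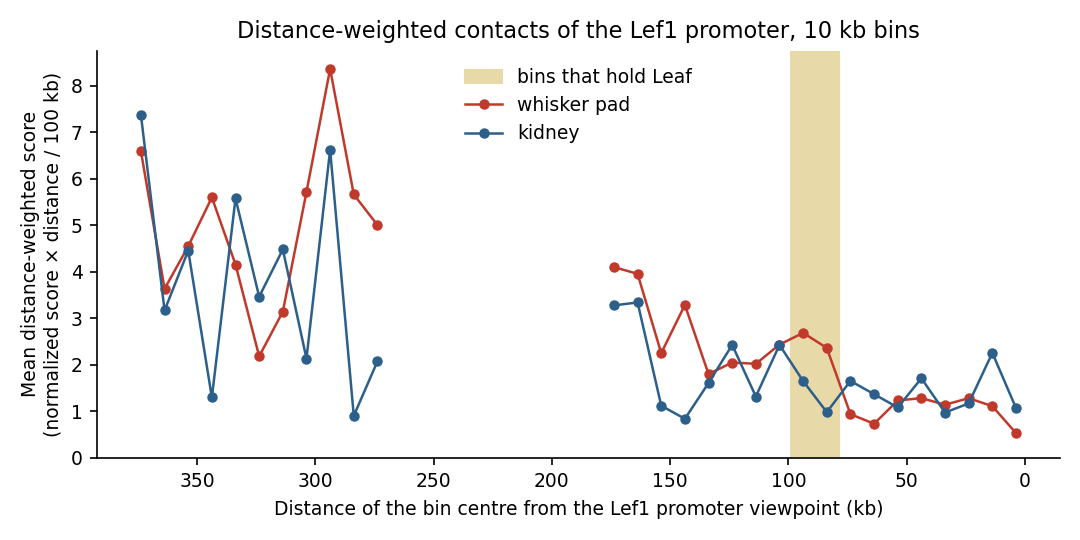
Mean distance-weighted score of each 10 kb bin (vertical axis, normalized score times distance in units of 100 kb) against the distance of the bin centre from the *Lef1* promoter viewpoint in kb, with 1 point per bin and library. The far part, left, held the highest bins of both tissues, with a maximum of 8.36 for whisker pad and of 7.37 for kidney, and the Leaf bins, shaded, had 2.69 and 2.36 in whisker pad and 1.65 and 0.98 in kidney.

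Without the weight, far means were below near means, with 1.57 against 2.69 in whisker pad and 1.18 against 2.89 in kidney. By the distance-weighted score, though, the bins with the highest values from the promoter lay in the far part in both tissues. In whisker pad, these were the bins from 130810001 (8.36), 130730001 (6.59) and 130800001 (5.72). In kidney, they were the bins from 130730001 (7.37), 130810001 (6.63) and 130770001 (5.58). The bin from 130730001 borders *Rpl34*, which encodes a ribosomal protein, and was above 0 at 13 of 13 fragments in whisker pad and at 7 of 13 in kidney. In the bin from 130810001, 1 fragment at 130818239 to 130818515 had the highest score of the bin in both tissues, 10.4 in whisker pad and 11.7 in kidney, and held 36.6% and 51.8% of the score of the bin. Its sequence is the first printed above. It had 6.02 from Leaf in whisker pad and 0 from Leaf in kidney.

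The lowest distance-weighted scores in whisker pad lay between Leaf and the promoter, in the bins from 131100001 (0.53), 131040001 (0.73) and 131030001 (0.94). In kidney they were spread over both parts, in the bins from 130960001 (0.84), 130820001 (0.90) and 131070001 (0.97). Within the near part, the slope of the normalized score on distance was -0.48 on log-log axes in whisker pad and -0.82 in kidney over 18 bins. In the far part it was -1.65 and 1.75 over 11 bins, and over the fragments above 0 within 1 Mb it was -1.02 and -0.56, where the weighting assumes -1. Where scores fall less steeply than this, as over the near part in both tissues, the weighting itself lowers bins beside the promoter relative to distant ones.

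The highest ratios of whisker pad to kidney from the promoter were those of the bins from 130820001 (6.21), 130760001 (4.32) and 130960001 (3.96). In the bin from 130820001, whisker pad had 8 of 8 fragments above 0 and kidney 2 of 8, with mean normalized scores of 1.997 and 0.322. The bin from 130760001 followed, where 6 and 3 of 7 fragments were above 0, with 1.62 and 0.37. In the bin from 130960001, which lies between *2010110G14Rik* and Leaf, 12 and 5 of 12 were above 0, with 2.29 and 0.58. The Leaf bins were below these bins in ratio. The bins that border *2010110G14Rik* had ratios of 2.42 on the side of *Rpl34* (from 130830001) and 1.25 on the side of *Lef1* (from 130930001, 4 fragments).

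**Figure D4:**
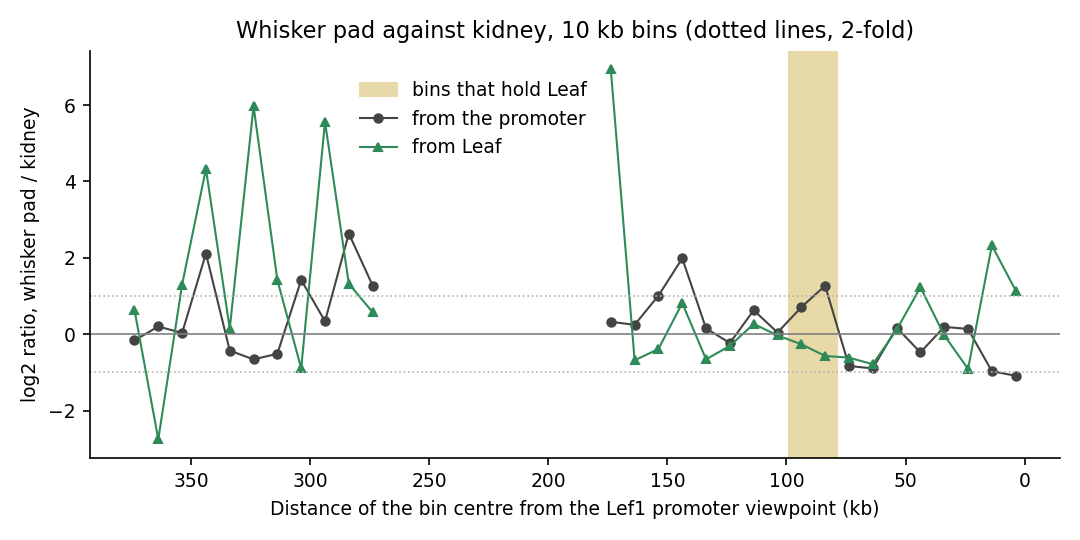
Log2 ratio of the mean normalized score, whisker pad over kidney (vertical axis), of each 10 kb bin against the distance of the bin centre from the *Lef1* promoter viewpoint in kb, seen from the promoter (circles) and from Leaf (triangles). Dotted lines mark 2-fold differences, and the highest values from Leaf, up to 6.94, rest on 1 kidney fragment above 0 each.

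From Leaf, the highest ratios rested on almost empty kidney bins. They were those of the bins from 130930001 (123), 130780001 (62.6) and 130810001 (47.2), in each of which 1 fragment was above 0 in kidney. In all, 7 of the 29 bins rested on 1 fragment in the kidney library from Leaf, and 0 bins were wholly at 0 in any library. In whisker pad, the bin from 130780001 had a mean normalized score of 1.95 with 6 of 8 fragments above 0, and the bin from 130810001 had 2.14 with 9 of 10. The lowest ratios were those of the bins from 130740001 (0.15), 131080001 (0.53) and 130800001 (0.54). The bin from 130740001 had 3.74 in kidney with 6 of 12 fragments above 0 and 0.55 in whisker pad with 5 of 12. The kidney score of the bin from 130800001 came from 1 of 6 fragments, and 52.2% of that of the bin from 131080001 from 1 of 9.

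**Figure D5:**
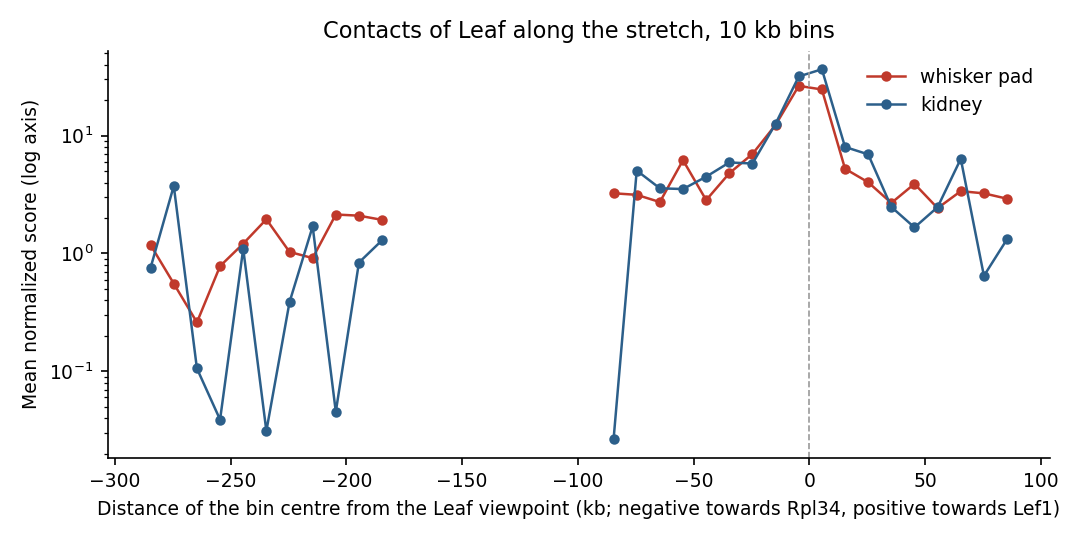
Mean normalized score of each 10 kb bin from the Leaf viewpoint (vertical log axis) against the distance of the bin centre from that viewpoint in kb, negative towards *Rpl34* and positive towards *Lef1*, with 1 point per bin and library. Whisker pad and kidney differed by less than 2-fold in the 8 bins from 34.5 kb on the side of *Rpl34* to 35.5 kb on the side of *Lef1*, and in the far part the kidney bins scattered from 0.03 to 3.74.

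By the distance-weighted score from Leaf, the highest bins in whisker pad were those from 130780001 (4.57), 130810001 (4.39) and 130820001 (4.08), all in the far part. In kidney, they were those from 130740001 (10.25), 131080001 (4.18) and 130940001 (3.72). The lowest were the bins from 130750001 (0.69), 131030001 (0.87) and 131050001 (0.93) in whisker pad, and those from 130930001 (0.02), 130780001 (0.07) and 130810001 (0.09) in kidney. The bin from 130810001 was thus among the highest from both viewpoints in whisker pad and from the promoter in kidney, but among the lowest from Leaf in kidney. Fitted only to fragments above 0 within 1 Mb of Leaf, the slopes of -0.62 for whisker pad and -0.44 for kidney were less steep than the weighting assumes. Bin means, which include the fragments at 0, gave a mixed result. Their slopes from Leaf were -0.74 (whisker pad) and -1.29 (kidney) over the near part, and -3.02 and -0.45 over the far part. Kidney in the near part and whisker pad in the far part were thus steeper than assumed, and the others less steep.

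From 5 to 65 kb, the mean scores from Leaf were lower towards the promoter than away from it in both tissues. The windows compared were not matched for distance inside them. At 5 to 25 kb, the mean score was 7.31 on the side of *Lef1* and 15.3 on the side of *Rpl34* in whisker pad, a ratio of 0.477. In kidney it was 12.8 and 15.9, a ratio of 0.807. In this window, the side of *Lef1* had fragments at 5.16 and 6.60 kb and its next at 11.6 kb. The side of *Rpl34* also had fragments between these, as at 7.53, 8.41 and 9.73 kb. The 2 fragments nearest on the side of *Lef1* had 24.8 and 29.2 in whisker pad and 38.6 and 66.1 in kidney. The part of fragment positions in the ratios was not tested. At 25 to 45 kb the ratios were 0.571 and 0.417, at 45 to 65 kb 0.771 and 0.626, and at 65 to 85 kb 1.05 and 1.03. Near the promoter, in the bins from 131090001 and 131100001, Leaf contacts had means of 3.24 and 2.92 in whisker pad and of 0.65 and 1.32 in kidney, with 7 of 9 and 4 of 9 fragments above 0. These ends of the stretch were higher in whisker pad from Leaf and higher in kidney from the promoter.

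Once distance was weighted in, the order of the bins was more alike between the tissues from the promoter than from Leaf. Over the 29 bins, whose points share the viewpoint and the fall of scores with distance, Spearman's rho between the tissues was 0.51 for the normalized and 0.44 for the distance-weighted score from the promoter. From Leaf it was 0.70 and -0.09, so that without the weight the order was more alike from Leaf. In the kidney library from Leaf, 7 of the 29 bins rested on 1 fragment above 0, and the part of this in the low value was not tested. Between the viewpoints, the distance-weighted score had a rho of 0.48 in whisker pad and -0.09 in kidney. The log2 ratios of the tissues seen from the promoter and from Leaf had a rho of -0.05. With the 1 Mb scale, a bin was higher in whisker pad from both viewpoints in 9 cases, from the promoter alone in 10, from Leaf alone in 7 and from neither in 3. Of the 183 bins within 1 Mb of both viewpoints, these were 37.7%, 23.0%, 22.4% and 16.9%, beside 31.0%, 34.5%, 24.1% and 10.3% of the 29. At least 2-fold higher from both viewpoints were 2 bins (6.90%), those from 130760001 and 130820001, against 19.1% of the 183, where a bin at 0 in kidney alone counts as 2-fold. Outside the Leaf bins, the same fragment was the highest of its bin in both tissues for 6 of 27 bins from the promoter and 4 of 27 from Leaf.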

How the data were processed

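Per the labels and methods, the authors cut the chromatin of 4 samples with NlaIII and DpnII, aligned the reads to mm10 with Bowtie2 and computed scores per fragment with HTSstation. The deposited values are a raw and a smoothed signal per fragment, whose scaling is not given in the sources used here. File starts count from 0, and positions here count from 1. Of 1401 chromosome 3 fragments compared with GRCm38, 1401 lay between CATG sites. Fragments were placed by midpoint, raw scores were divided by the mean within 1 Mb of the viewpoint midpoints 131108763 (promoter) and 131019540 (Leaf), and bins of 10 kb needed at least 3 fragments. A bin at 0 in kidney alone counted as at least 2-fold higher. Bins cut by an end of the stretch hold only its fragments. The bins named were the Leaf bins, the 3 highest and 3 lowest by distance-weighted score per library and by ratio per viewpoint, and those beside *Rpl34*, *2010110G14Rik* and the promoter. The members, bins and measures were chosen with earlier results of these data known. The scripts were tested on simulated data. The alternatives changed the fragments, the scaling, the bins, the summary, the distance slope and the smoothing. The tools were pandas 2.3.3 and numpy 2.4.6 in Python 3.11.15, scipy 1.17.1 for the intervals and, for the plots, matplotlib 3.10.9.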

Additional observations from a re-analysis of the deposited data

How the results depend on the processing

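With 1 library per tissue and viewpoint, no replicate could be left out, and the depth of the libraries is unknown. No paired analysis was possible because no group had a second sample. The alternatives were set with earlier results of these data known, and those for the local ratio and for fragments above 0 in both libraries were added after the values were seen. The latter filter removes mainly fragments above 0 in whisker pad alone, and no log2 ratio was read from it. The splits of the 177 and 114 fragments above 0 in both tissues rest on the same selection. Of 140 planned comparisons with the values of the whole stretch, the bins and the Leaf bins, 94 stayed within the Wilson interval (shares of fragments) or within 1.5-fold (all others). The causes of the changes below were not tested.

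Scaled to the mean of all of chromosome 3, the log2 ratio of whisker pad to kidney was 0.75 from the promoter, 0.57 from Leaf and 1.60 in the Leaf bins, with 11 of 29 bins at least 2-fold higher and 0 lower from the promoter. Scaled to the median of fragments above 0, the ratios were 1.09, 1.34 and 1.94, with 19 bins from the promoter and 21 from Leaf at least 2-fold higher, and 0 lower from the promoter.

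By the share of fragments above 0 in place of the mean, the log2 ratios were 0.63, 0.86 and 0.21, and 16 bins from Leaf were at least 2-fold higher and 0 lower from either viewpoint. The Leaf bins then exceeded 8 of 27 other bins in whisker pad and 23 of 27 in kidney by the normalized and the distance-weighted score, and 5 of 27 by the ratio. Their local ratio was 1.06 in whisker pad and 1.29 in kidney. By the median of fragments, the log2 ratio from the promoter was 1.17, and 15 bins from the promoter and 19 from Leaf were at least 2-fold higher. In kidney, the Leaf bins then exceeded 16 of 27 bins by distance-weighted score, and their local ratio was 1.95. The median gave no log2 ratio from Leaf, as it was 0 in kidney.

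With the grid shifted by 5 kb, 4 of 29 bins from the promoter were at least 2-fold higher, and 2 from the promoter and 5 from Leaf at least 2-fold lower, while the Leaf bin exceeded 6 of 28 bins in kidney by distance-weighted score. With 20 kb bins, 2 of 16 were at least 2-fold higher from the promoter and 1 of 16 lower from either viewpoint. With 5 kb bins, 4 of 51 were at least 2-fold lower from the promoter and 7 of 50 from Leaf. With the deposited smoothed scores, 4 of 29 from the promoter were at least 2-fold higher and 0 lower, and the Leaf bins exceeded 4 of 27 in kidney by distance-weighted score. With only fragments that hold a DpnII site, 0 of 28 bins were at least 2-fold lower from the promoter.

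Against the near part alone, the Leaf bins exceeded 13 of 16 bins in whisker pad and 8 of 16 in kidney by distance-weighted score, and 11 of 16 and 4 of 16 by normalized score. The stretch held 19.8% and 11.8% of the score of all of chromosome 3 from the promoter in whisker pad and kidney, and 31.1% and 20.97% from Leaf. Without fragments within 20 kb of Leaf, 39.5% were above 0 in kidney.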
